A study of Mus musculus with 8 samples.

Results

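A set of genes of renal calcium reabsorption and vitamin D signalling was read in whole-kidney RNA of mice; the 10 genes were chosen by name and role: the calcium entry channel genes Trpv5 and Trpv6, the calcium buffer genes Calb1 and S100g, the extrusion genes Slc8a1, Atp2b1 and Atp2b4, the receptor gene Vdr and the hydroxylase genes Cyp27b1 and Cyp24a1. For each gene the probe set that the platform's annotation assigns to it alone was used, or the brightest of several, and 8 of the 10 had such a probe set among the 19936 genes tested. Atp2b4 and Cyp24a1 were not analysed here. Of the 8, S100g and Calb1 rose in the kidneys labelled mutant, 1.87-fold and 1.45-fold. Of all genes 7.23% passed, and 2.59% passed as higher. Vhl, the targeted gene, was itself higher in the kidneys labelled mutant. Directions therefore follow the labels alone and should not be read as effects of losing Vhl. Slc8a1, 1.37-fold higher, did not pass in the main, unpaired fit (limma adjusted p = 0.135). It passed when arrays of the same number were compared with each other (limma adjusted p = 0.0275). That pairing was taken from correlations in these data and is not given by the labels. Trpv5, Trpv6, Atp2b1, Vdr and Cyp27b1 did not pass in either fit.

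The study holds 4 arrays labelled mutant, from mice of the genotype Pax8-rtTA;LC-1;Vhl-floxed, and 4 arrays labelled control, from littermates whose alleles the labels do not give. Together, Pax8-rtTA and LC-1 switch on Cre in kidney tubule epithelium when doxycycline is given, so the vessels, stroma and blood cells in the same RNA keep their Vhl. All mice were female, of a mixed C57BL/6 - SV127 background, were given doxycycline (0.2 mg/ml, with 5% sucrose) to drink for 2 weeks starting when 3 weeks old, returned to normal water for 1 week, and had their kidneys taken at 6 weeks. Each array is described as a separate mouse.

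Calcium that reaches the late distal convoluted tubule and connecting tubule is recovered through the cell: it enters from the urine through TRPV5 and TRPV6, is carried by the calbindins, and leaves towards the blood through the sodium-calcium exchanger NCX1 (Slc8a1) and plasma membrane calcium pumps (Atp2b genes). Parathyroid hormone and calcitriol, the active form of vitamin D, are the main known hormonal controls. Calcitriol is made in the proximal tubule by the enzyme of Cyp27b1, is broken down by that of Cyp24a1, and acts through the nuclear receptor VDR, whose known target genes include the channels and calbindins.

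The targeted gene was read first, and it went against the labels. Vhl averaged 8.34 ± 0.0909 in mutant-labelled arrays and 8.05 ± 0.118 in control-labelled arrays (SD, n = 4 each; limma adjusted p = 0.0387, and 0.0558 with the replicate number as a block; 0.0128 to 0.123 over all alternatives). The Vhl call was lost without any 1 of mutant arrays 2, 3 and 4 and control arrays 1, 2 and 3 (limma adjusted p 0.0785 to 0.114). All 10 measured genes of a list of targets of hypoxia-inducible factor, which VHL protein normally keeps low, were lower in the arrays labelled mutant, among them Egln3 at 8.82 ± 0.229 in mutant-labelled and 11.8 ± 0.197 in control-labelled arrays and Car9 at 7.18 ± 0.268 in mutant-labelled and 10.1 ± 0.696 in control-labelled arrays (SD, n = 4 each). Genes that define the labelled tissue were read at high levels. Umod, the uromodulin gene of the thick ascending limb, stood at 13.72 ± 0.0575 in mutant-labelled and 13.58 ± 0.0206 in control-labelled arrays (SD, n = 4 each). Slc34a1, the proximal phosphate transporter gene, stood at 13.77 ± 0.0446 in mutant-labelled and 13.62 ± 0.0861 in control-labelled arrays (SD, n = 4 each). The sources used here do not say which exons the Vhl probe set reads. Every direction below follows the labels alone and should not be read as an effect of losing Vhl. Array medians were 7.55 to 7.58 on the deposited log2 scale, and 1442 of the 19936 genes (7.23%) passed at an adjusted p under 0.05, 517 of them higher (2.59%) and 925 lower (4.64%). The median log2 difference of all genes was 0.03.

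Upstream sequences of 3 genes are shown for reference beside the values: that of S100g, the called gene with the larger change; that of Slc8a1, called in the paired fit; and that of Trpv5, the entry channel gene, which did not pass. They are the 250 bases before a RefSeq transcript start (GRCm38.p6, printed along the gene's own strand), at chrX:162964600-162964849 for S100g, chr17:81738388-81738637 for Slc8a1 and chr6:41680724-41680973 for Trpv5, the minus strand in each case. The Trpv5 window lies inside the annotated gene, which reaches chr6:41681224, so it does not precede the gene's outermost start. Capitals mark GCGTG on either strand, a core to which hypoxia-inducible factor is known to bind, and TATAAA on the gene's strand; the pair does not overlap in any of the sequences.
S100g: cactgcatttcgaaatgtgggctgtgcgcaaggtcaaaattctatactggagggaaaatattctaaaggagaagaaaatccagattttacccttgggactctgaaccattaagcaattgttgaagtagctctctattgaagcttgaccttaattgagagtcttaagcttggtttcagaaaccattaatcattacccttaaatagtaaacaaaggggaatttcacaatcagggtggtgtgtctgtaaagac
Slc8a1: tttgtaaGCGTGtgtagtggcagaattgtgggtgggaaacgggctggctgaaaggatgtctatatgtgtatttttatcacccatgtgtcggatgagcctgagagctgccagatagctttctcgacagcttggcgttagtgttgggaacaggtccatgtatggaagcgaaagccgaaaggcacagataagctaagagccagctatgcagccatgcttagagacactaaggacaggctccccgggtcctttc
Trpv5: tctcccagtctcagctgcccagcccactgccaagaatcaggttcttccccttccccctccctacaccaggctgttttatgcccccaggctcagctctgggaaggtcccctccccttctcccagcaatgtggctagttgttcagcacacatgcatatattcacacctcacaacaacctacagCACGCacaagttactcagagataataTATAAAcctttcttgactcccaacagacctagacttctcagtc
The S100g sequence held neither motif. Slc8a1 held 1 GCGTG, on its own strand, and Trpv5 held 1 on the opposite strand and 1 TATAAA. Of 32851 upstream sequences of the same length in the table, 28.2% held GCGTG and 7.59% held TATAAA. Neither ACGTG, the other such core (16.6% of all), nor the vitamin D response element of the DR3 type, a direct repeat known to bind VDR (0.0396% of all), was found on either strand in the 9 upstream sequences that the table holds for the set, 2 of them for Atp2b1. Calb1 and Cyp24a1 had none there and were not searched. A missing match says only that these letters are not in this window.

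S100g, which encodes the small calbindin that binds calcium with a pair of EF hands, had the largest difference among the measured members. It read 12.66, 12.70, 12.11 and 12.44 in arrays 1 to 4 labelled mutant, against 11.14, 11.49, 11.82 and 11.84 in arrays 1 to 4 labelled control. The lowest mutant array lay above the highest control array, and mutant array 3 and control array 1 were the lowest of their groups. The means were 12.48 ± 0.270 in mutant-labelled and 11.57 ± 0.331 in control-labelled arrays (SD, n = 4 each), a log2 difference of 0.91 with a standard error of 0.172 (95% interval 0.52 to 1.29; limma adjusted p = 0.0115). With the replicate block the interval was 0.44 to 1.37 and the limma adjusted p 0.0379. By signed difference S100g stood 29th from the top of the 19936 genes, and by size in either direction 107th.

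Calb1, which encodes the larger calbindin of the distal tubule, read 12.70, 12.91, 12.59 and 12.59 in the arrays labelled mutant, against 11.89, 12.30, 12.31 and 12.13 in the arrays labelled control. Here too the groups did not overlap, and control array 1 was again the lowest of the 8. Its log2 difference was 0.54 with a standard error of 0.106 (means 12.70 ± 0.152 in mutant-labelled and 12.16 ± 0.196 in control-labelled arrays, SD, n = 4 each; 95% interval 0.30 to 0.77; limma adjusted p = 0.0139, and 0.0168 with the block). An exact two-sided permutation of the 8 values gave p = 0.0286 for Calb1 and for S100g, the smallest that 4 against 4 arrays allow. These were the 2 members of 8 whose groups did not overlap, where 14.8% of all genes had groups that did not overlap, and the 2 that passed, where 7.23% of all genes passed. Both calls were lost when mutant arrays 1 and 2 were left out together (log2 differences 0.70 for S100g and 0.43 for Calb1, limma adjusted p = 0.0943 and 0.0884), and both were kept without any single array. The alternatives gave S100g a limma adjusted p between 0.00793 and 0.0943, and Calb1 one between 0.00789 and 0.0884.

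**Figure D1:**
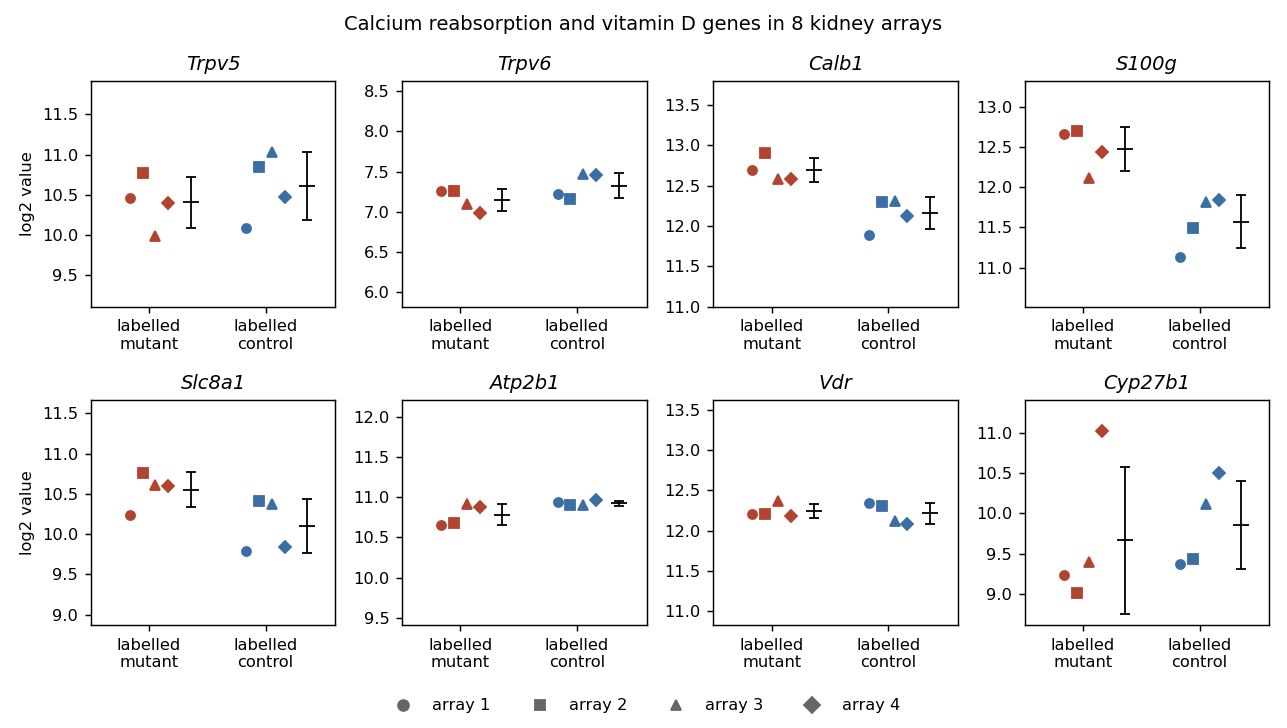
Log2 values of the 8 measured genes in the 4 arrays labelled mutant (left, red) and the 4 labelled control (right, blue); each symbol is 1 array number, the black bars are the mean and SD, and all panels span the same log2 range. Calb1 and S100g are the genes whose groups do not overlap, and Cyp27b1 has 1 mutant array at 11.02 with the other 3 at 9.01 to 9.40.

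Among the extrusion genes, Slc8a1 read 10.24, 10.76, 10.61 and 10.60 in the arrays labelled mutant, against 9.78, 10.41, 10.37 and 9.84 in the arrays labelled control. Of the mutant arrays, 3 lay above every control array, while mutant array 1 lay below control arrays 2 and 3. The difference of 0.45 (standard error 0.162; means 10.55 ± 0.220 in mutant-labelled and 10.10 ± 0.334 in control-labelled arrays, SD, n = 4 each; 95% interval 0.09 to 0.81) did not pass in the unpaired fit (limma adjusted p = 0.135), where the gene's spread between arrays was above that of 97.2% of all genes. Within each number the mutant array was higher, by 0.46, 0.35, 0.24 and 0.76, and with the replicate number as a block the gene passed (95% interval 0.24 to 0.66; limma adjusted p = 0.0275, with 0.0275 to 0.305 over all alternatives). Another probe set that names Slc8a1 alone gave a difference of 0.50, with values of 10.0003, 10.44, 10.16 and 10.18 in the arrays labelled mutant and 9.27, 9.97, 9.99 and 9.56 in the arrays labelled control. That probe set did not overlap between the groups but did not pass in the unpaired fit over all probe sets naming 1 gene (limma adjusted p = 0.0950). In the paired fit 3 of the 8 members were called, all higher, where 8.31% of all genes were called and 3.04% were called higher.

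Atp2b1, a plasma membrane calcium pump gene expressed in many cell types, read 10.66, 10.67, 10.91 and 10.87 in the arrays labelled mutant, against 10.94, 10.90, 10.90 and 10.96 in the arrays labelled control. Mutant arrays 1 and 2 lay apart from the other 6, which spanned 10.87 to 10.96. Its difference of -0.14 (standard error 0.0684; 95% interval -0.30 to 0.01) did not pass (limma adjusted p = 0.256). It was -0.03 without mutant arrays 1 and 2 (limma adjusted p = 0.863) and -0.26 without mutant arrays 3 and 4 (limma adjusted p = 0.0415), so the value rests on mutant arrays 1 and 2. Those p-values were the highest and the lowest of its alternatives.

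**Figure D2:**
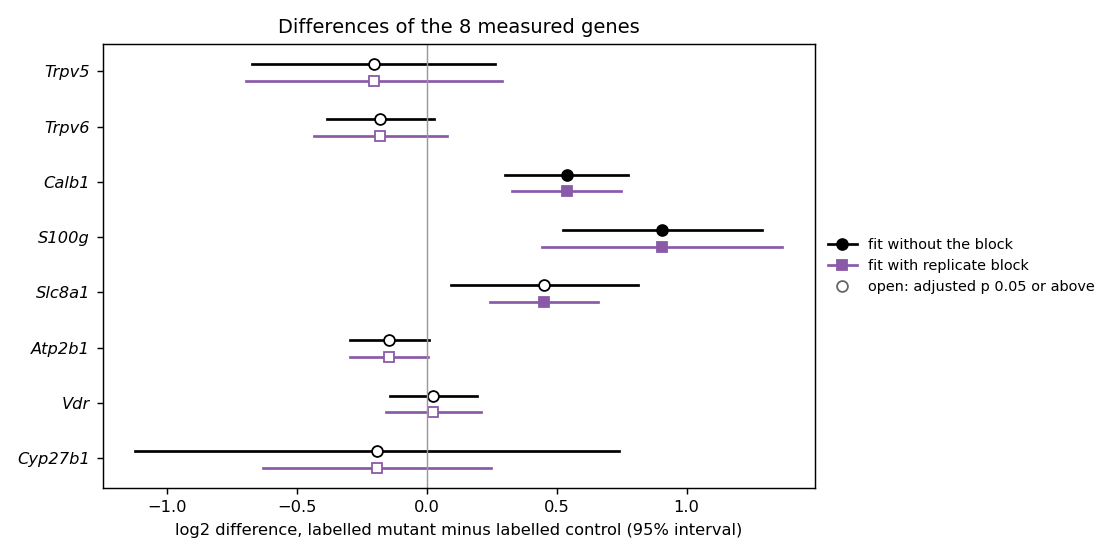
Log2 difference of each measured gene, labelled mutant minus labelled control, with its 95% interval, from the fit without a block (black circles) and with the replicate number as a block (purple squares); filled symbols passed at an adjusted p under 0.05. S100g and Calb1 passed in both fits and Slc8a1 in the paired fit, and the interval of Cyp27b1 is the widest in the unpaired fit.

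The entry channel genes did not pass. Trpv5, whose channel is the main route of calcium entry in the distal tubule, read 10.47, 10.77, 9.99 and 10.39 in the arrays labelled mutant, against 10.09, 10.84, 11.03 and 10.47 in the arrays labelled control. The groups overlapped over most of their range, and the lowest and the highest of the 8 values both came from arrays numbered 3. The difference was -0.20 (standard error 0.209; 95% interval -0.67 to 0.26; limma adjusted p = 0.609), an interval that holds changes between 0.628-fold and 1.20-fold. With single arrays left out it ran from -0.38 without control array 1 to -0.07 without mutant array 3 and -0.06 without control array 3. Trpv5 varied between arrays of a group more than 98.8% of all genes, yet the upper end of its interval lay below the Calb1 difference of 0.54.

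Trpv6, the close relative of Trpv5 that is best known from the intestine, read 7.25, 7.26, 7.09 and 6.98 in the arrays labelled mutant, against 7.22, 7.16, 7.47 and 7.46 in the arrays labelled control. All 8 values lay below the array medians of 7.55 to 7.58. Its difference was -0.18 (standard error 0.0925; 95% interval -0.39 to 0.03; limma adjusted p = 0.295). The same-numbered arrays differed in both directions, with mutant arrays higher by 0.03 and 0.10 for numbers 1 and 2 and the difference at -0.37 and -0.48 for numbers 3 and 4.

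**Figure D3:**
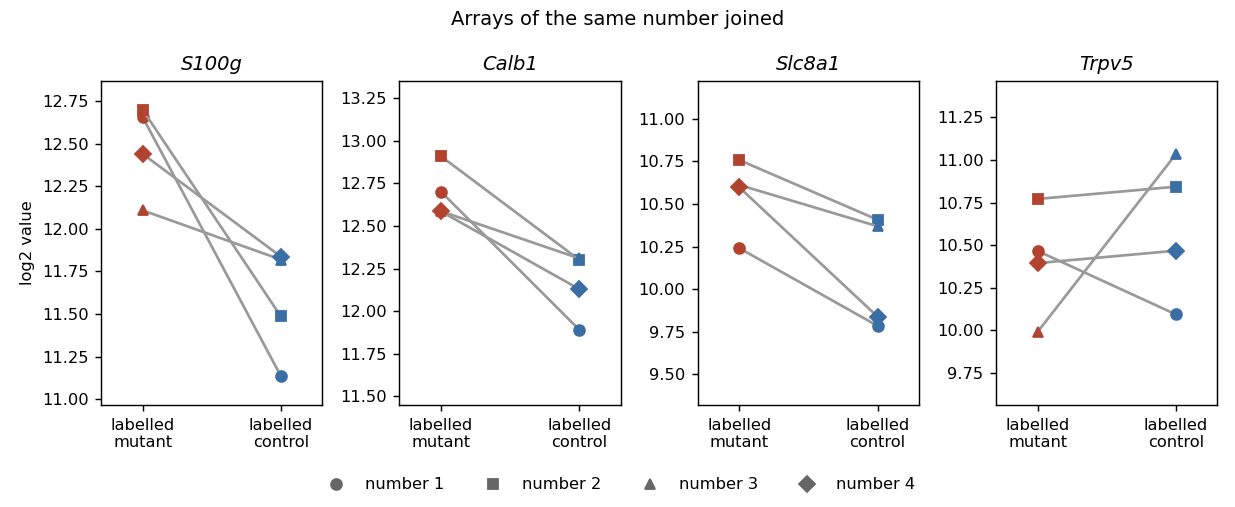
Log2 values of S100g, Calb1, Slc8a1 and Trpv5, with the arrays of the same number in the labelled mutant group (left) and labelled control group (right) joined by a line. All 4 lines fall from left to right for the first 3 genes, and for Trpv5 1 of 4 does.

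The differences of S100g and Calb1 within array numbers had the same order. S100g differed by 1.52, 1.21, 0.29 and 0.60 for numbers 1 to 4, and Calb1 by 0.81, 0.61, 0.28 and 0.46. Number 1 had the widest gap and number 3 the narrowest for both genes, as the plot of joined arrays shows. Slc8a1 had its widest gap in number 4 instead.

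The measured members of vitamin D action, Vdr and Cyp27b1, did not pass either. Vdr, the receptor gene, read 12.20, 12.21, 12.37 and 12.18 in the arrays labelled mutant, against 12.35, 12.31, 12.12 and 12.09 in the arrays labelled control. The 8 values spanned less than 0.3 on the log2 scale and the groups overlapped. The difference of 0.02 (standard error 0.0752; limma adjusted p = 0.873) had a 95% interval of -0.14 to 0.19, which leaves room for changes between 0.906-fold and 1.14-fold.

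Cyp27b1, the gene of the enzyme that makes calcitriol, read 9.23, 9.01, 9.40 and 11.02 in the arrays labelled mutant, against 9.38, 9.43, 10.11 and 10.50 in the arrays labelled control. The array numbered 4 was the highest of its group on both sides, and mutant array 4 stood 1.62 above the next mutant array. The difference of -0.19 (standard error 0.418; 95% interval -1.12 to 0.74; limma adjusted p = 0.820) covers changes between 0.459-fold and 1.67-fold. Without mutant array 4 it was -0.64 (limma adjusted p = 0.189). The spread of Cyp27b1 within groups, an SD of 0.754, was above that of 99.8% of all genes, whose median was 0.104.

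The genes whose pattern over the 8 arrays was most like that of a called member were found by the root mean square difference after centring each gene on its own mean. That mean is over both groups, so the measure includes the difference between the groups and does not show likeness within them. For S100g these were Pigr, of the polymeric immunoglobulin receptor (0.228), the aldo-keto reductase gene Akr1c19 (0.229) and Slc34a2, a sodium-phosphate cotransporter gene (0.230), against a root mean square of 0.523 for S100g itself. Pigr, Akr1c19 and Slc34a2 were higher in the arrays labelled mutant by 1.05, 0.838 and 0.870. For Calb1 the nearest were Olfr948, an olfactory receptor gene (0.0733), the choline transporter-like gene Slc44a3 (0.102) and Dio1, the gene of the deiodinase that activates thyroid hormone (0.115), against 0.309 for Calb1. Olfr948, Slc44a3 and Dio1 were higher in the arrays labelled mutant by 0.488, 0.397 and 0.564. Olfr948 read 3.46 to 4.40, far below the lower quartiles of the arrays (6.21 to 6.28). The genes nearest to Cyp27b1, a search added after its values were seen, were Nuak2, Psat1 and Sprr1a, at 0.351, 0.356 and 0.378 against 0.660 for Cyp27b1. Nuak2, a protein kinase gene, read 10.44, 10.33, 10.44 and 11.21 in the arrays labelled mutant and 10.40, 10.22, 10.65 and 11.17 in the arrays labelled control, so it too was highest in number 4 of each group.

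Among other genes of cellular calcium transport and buffering, Slc24a3 rose and Anxa2 and Atp2a3 fell. Of 21 measured pumps, exchangers and calcium-binding protein genes outside the set, 1 rose, 2 fell and 18 did not pass, where 7.23% of all genes passed, with a median log2 difference of 0.03, as for all genes. Slc24a3, of a potassium-dependent sodium-calcium exchanger, rose 1.42-fold (8.09 ± 0.142 in mutant-labelled and 7.58 ± 0.281 in control-labelled arrays; SD, n = 4 each; limma adjusted p = 0.0462, and 0.0235 to 0.209 over all alternatives). Anxa2, the annexin gene whose protein with S100A10 is known to bring TRPV5 and TRPV6 to the cell surface, fell 1.47-fold (9.11 ± 0.166 in mutant-labelled arrays, 9.67 ± 0.128 in control-labelled arrays; SD, n = 4 each; limma adjusted p = 0.00597). Its partner S100a10, named after its values were seen, averaged 11.78 ± 0.157 in mutant-labelled and 11.77 ± 0.0390 in control-labelled arrays (SD, n = 4 each; limma adjusted p = 0.964). Atp2a3, of an endoplasmic reticulum calcium pump, fell 1.23-fold (limma adjusted p = 0.0274, and 0.0161 to 0.0884 over all alternatives). The Slc24a3 call was lost without any 1 of mutant arrays 1, 2 and 3 and control arrays 2, 3 and 4 (limma adjusted p 0.0578 to 0.130). The Atp2a3 call was lost without any 1 of mutant arrays 1, 2 and 4 and control arrays 2, 3 and 4 (0.0514 to 0.0711). Parvalbumin, the EF-hand protein of the early distal convoluted tubule, is encoded by Pvalb, which read 10.05 ± 0.446 in mutant-labelled and 9.93 ± 0.209 in control-labelled arrays (SD, n = 4 each; limma adjusted p = 0.750), a gene named after its values were seen that missed the threshold.

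The paracellular route takes calcium between cells, mainly in the proximal tubule and thick ascending limb. Of its 10 genes 2 rose and 0 fell, where 2.59% of all genes rose and 4.64% fell, with a median of 0.10. These were Cldn19 (10.22 ± 0.153 in mutant-labelled and 9.57 ± 0.172 in control-labelled arrays, 1.57-fold; limma adjusted p = 0.00424) and Cldn16 (10.25 ± 0.0985 in mutant-labelled and 9.75 ± 0.138 in control-labelled arrays, 1.42-fold; limma adjusted p = 0.00451; SD, n = 4 each), whose claudins together form the pore through which calcium and magnesium cross in the thick ascending limb. Cldn2, the cation pore gene of the proximal tubule, had a difference of -0.03 (95% interval -0.15 to 0.08).

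Among 16 measured genes through which hormones act on renal calcium, 2 rose, 0 fell and 14 did not pass, with a median of 0.09. The shares over all genes were 2.59% higher and 4.64% lower. Casr, the calcium-sensing receptor gene, was higher by 0.32 (10.91 ± 0.0715 in mutant-labelled and 10.59 ± 0.0729 in control-labelled arrays, SD, n = 4 each; limma adjusted p = 0.0102), and Wnk4, a kinase gene of distal salt and calcium transport, by 0.39 (10.47 ± 0.122 in mutant-labelled and 10.08 ± 0.113 in control-labelled arrays, SD, n = 4 each; limma adjusted p = 0.0151). Kl, which encodes Klotho, a protein reported to hold TRPV5 at the cell surface, read 12.64 ± 0.0720 in mutant-labelled and 12.39 ± 0.116 in control-labelled arrays (SD, n = 4 each). Its groups did not overlap, as for 14.8% of all genes. Kl missed the threshold in the unpaired fit (limma adjusted p = 0.0566, and 0.0167 to 0.152 over all alternatives). It passed with the block (0.0411), quantile normalization (0.0167), the robust eBayes with trend (0.0240), the upper 60% of genes (0.0341), array weights (0.0375) or without control array 3 (0.0491). Pth1r, the parathyroid hormone receptor gene, differed by 0.17 and did not pass (limma adjusted p = 0.188).

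None of the 18 measured genes of vitamin D uptake, hydroxylation and receptor partnership passed in the unpaired limma fit, where 7.23% of all genes passed. An unadjusted p under 0.05 was seen for 2 of the 18, and the median difference of all 18 was -0.01. The largest difference was that of Cyp2r1, known as a vitamin D hydroxylase gene of the liver, at -0.55 (5.75 ± 0.858 in mutant-labelled and 6.29 ± 0.664 in control-labelled arrays, SD, n = 4 each; limma adjusted p = 0.488). With single arrays left out that difference ran from -0.97 without mutant array 4 to -0.34 without mutant array 2, and within array numbers it was -1.48, -1.13, -1.22 and 1.65. Its signal was low: against array lower quartiles of 6.21 to 6.28, the Cyp2r1 mean lay below in mutant-labelled arrays and just above in control-labelled arrays. With the block 2 of the 18 passed, where 8.31% of all genes did. They were Cyp27a1, another vitamin D hydroxylase gene, and Dhcr7, whose enzyme uses up the skin's vitamin D precursor. Their differences were 0.45 and 0.32 (limma adjusted p = 0.0324 and 0.0168, against 0.0918 and 0.0824 without the block). Cyp27a1 also passed without mutant array 1 (0.00868) and Dhcr7 without mutant array 4 (0.0310). Lrp2, the gene of megalin, which takes up vitamin D with its carrier protein, differed by -0.06 and did not pass in either fit. Of 13 measured genes reported as vitamin D receptor targets in various tissues, 2 rose and 1 fell, where 2.59% of all genes rose and 4.64% fell. Trpm6, the distal magnesium channel gene, was 1.64-fold higher (9.04 ± 0.190 in mutant-labelled and 8.33 ± 0.156 in control-labelled arrays) and Tgfb2, a growth factor gene, 1.42-fold higher (9.15 ± 0.0826 in mutant-labelled and 8.64 ± 0.217 in control-labelled arrays), while Igfbp3, whose protein binds insulin-like growth factors in plasma, was 1.64-fold lower (11.53 ± 0.0567 in mutant-labelled and 12.25 ± 0.123 in control-labelled arrays; SD, n = 4 each). The Tgfb2 call was lost without control array 2 (limma adjusted p = 0.0510).

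**Figure D4:**
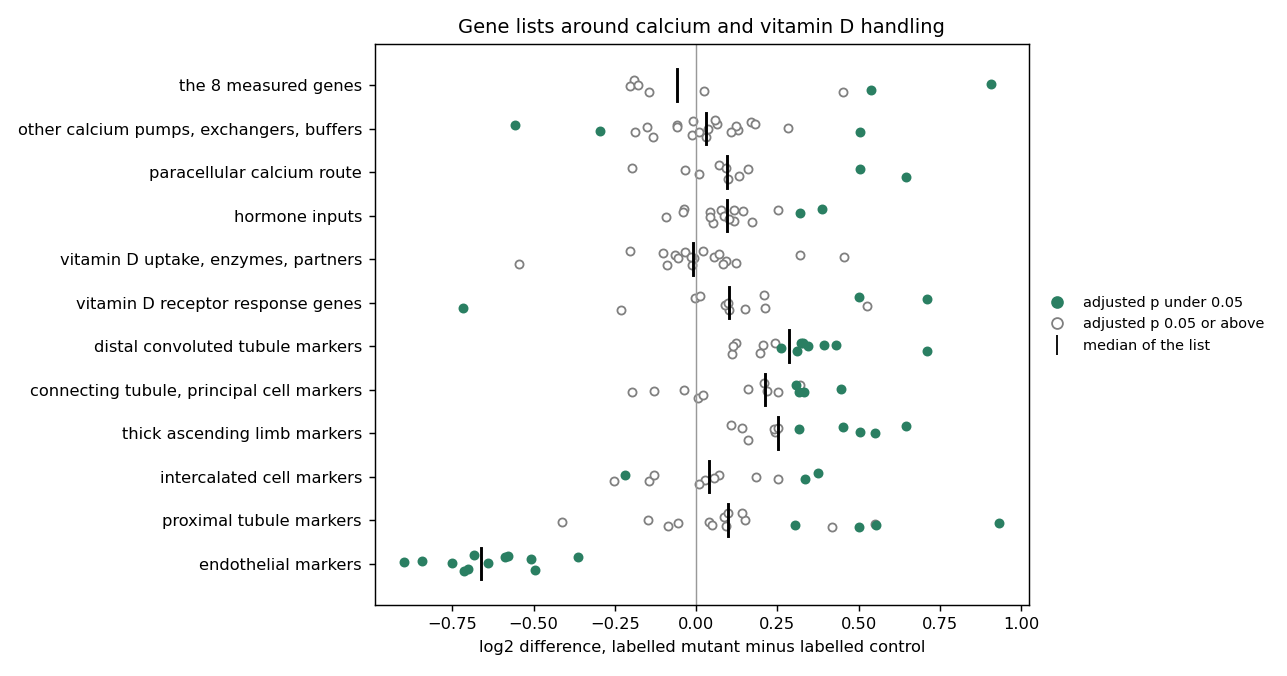
Log2 difference, labelled mutant minus labelled control, of every measured gene in 12 lists; each point is a gene, filled where it passed at an adjusted p under 0.05, and the vertical bar is the list's median. The medians of the distal convoluted tubule and thick ascending limb lists are 0.29 and 0.25, against 0.03 for all genes, and that of the endothelial list is -0.66.

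Some markers of the segments that hold these genes rose, and none of them fell past the threshold. The counts below stand beside shares of 2.59% higher and 4.64% lower over all genes. In bulk tissue, more or fewer cells of a type and more or less RNA per cell cannot be told apart. Of 14 distal convoluted tubule markers 8 rose and 0 fell, all 14 had differences above 0, 4 rose without mutant arrays 1 and 2, and the list's mean level was 11.22 to 11.40 in the arrays labelled mutant and 10.95 to 11.04 in the arrays labelled control, without overlap. Besides Trpm6 they included Tmem52b (13.02 ± 0.131 in mutant-labelled and 12.59 ± 0.0417 in control-labelled arrays), Klhl3, a regulator of WNK kinases (10.40 ± 0.159 in mutant-labelled and 10.003 ± 0.105 in control-labelled arrays), and Slc16a7 (11.97 ± 0.0688 in mutant-labelled and 11.63 ± 0.0489 in control-labelled arrays; SD, n = 4 each). The Klhl3 call was lost without any 1 of control arrays 1, 3 and 4 (limma adjusted p 0.0524 to 0.0693). Slc12a3, the thiazide-sensitive cotransporter gene that defines the segment, read 13.01 ± 0.154 in mutant-labelled and 12.77 ± 0.127 in control-labelled arrays (SD, n = 4 each; limma adjusted p = 0.147, and 0.0341 with the block). Of 14 connecting tubule and principal cell markers 4 rose and 0 fell, and the mean level of that list was 10.08 to 10.26 in mutant-labelled and 9.96 to 10.11 in control-labelled arrays. The risen genes were Aqp3, Tmem213, Kcnj1 and Hsd11b2, higher by 0.45, 0.33, 0.32 and 0.31. Kcnj1 is also on the list of thick ascending limb markers below, so it is counted among the risen genes of both lists. Aqp2, the vasopressin-regulated water channel gene of principal cells, differed by -0.04. Avpr2, the vasopressin receptor gene, differed by -0.13 and St6gal1 by -0.20, and none of these 3 passed. The 4 became 1, Kcnj1, without control array 3 and 0 without mutant arrays 1 and 2. Aqp3 was also lost without any 1 of mutant arrays 1, 2 and 4 and control array 2 (limma adjusted p 0.0739 to 0.106). Tmem213 was also lost without control array 1 (limma adjusted p = 0.0507). The part of these segment markers in the S100g and Calb1 differences was not tested.

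Markers of other cell types differed in both directions, where 2.59% of all genes were called higher and 4.64% lower. Of 11 thick ascending limb markers 5 rose and 0 fell (mean level 10.59 to 10.65 in mutant-labelled and 10.20 to 10.41 in control-labelled arrays), led by Cldn19, Bsnd, Cldn16 and Ppp1r1a. The call of Ppp1r1a was lost without any 1 of mutant arrays 2 and 4 and control arrays 1, 2 and 3 (limma adjusted p 0.0528 to 0.0645). Of 17 proximal tubule markers 4 rose and 0 fell (12.19 to 12.45 in mutant-labelled and 12.03 to 12.22 in control-labelled arrays), led by Slc22a7, Slc13a3, Acsm2 and Slc22a8. The call of Slc22a8 was lost without any 1 of mutant arrays 2, 3 and 4 and control arrays 1, 3 and 4 (limma adjusted p 0.0699 to 0.121). Of 12 intercalated cell markers Slc4a9 and Atp6v1b1 rose and Car2 fell, the last neither with the block (limma adjusted p = 0.0768) nor without any single array but control array 2 (0.0847 to 0.132). Neither rise held without mutant array 2 or without control array 3 (limma adjusted p 0.0542 and 0.0566 for Atp6v1b1). That of Slc4a9 was also lost without any 1 of mutant arrays 3 and 4 and control arrays 1 and 4 (limma adjusted p 0.0659 to 0.109 over the 6 arrays). The mean level of the list was 10.03 to 10.24 in mutant-labelled and 10.05 to 10.30 in control-labelled arrays. All 12 endothelial markers fell (10.06 to 10.16 in mutant-labelled and 10.71 to 10.86 in control-labelled arrays), Kdr, Cdh5, Tie1 and Flt1 by the most. Macrophage and lymphocyte markers had 0 of 12 passing in the unpaired limma fit, and 2 at an unadjusted p under 0.05 (7.73 to 8.28 in mutant-labelled and 7.97 to 8.19 in control-labelled arrays). Without mutant arrays 1 and 2 the list had 5 lower, and without mutant arrays 3 and 4 it had 1 higher. Itgam differed by -0.42 (limma adjusted p = 0.0530, with 0.0148 to 0.176 over all alternatives). It passed with the block (0.0148), quantile normalization (0.0326), median centring (0.0462), the robust eBayes with trend (0.0420) or array weights (0.0223). Leaving out mutant array 2 (0.0461), control array 4 (0.0304) or mutant arrays 1 and 2 together (0.0196) also let it pass. Podocyte markers had Clic3 higher and Podxl lower of 6 (8.99 to 9.09 in mutant-labelled and 8.95 to 9.11 in control-labelled arrays). Adrenal cortex markers had 0 of 8 passing in the unpaired limma fit, and 1 at an unadjusted p under 0.05 (6.15 to 6.29 in mutant-labelled and 6.04 to 6.24 in control-labelled arrays). Cyp11a1, with the largest difference of the list, was not that gene (limma unadjusted p = 0.0660, adjusted p = 0.264). It read 5.82 ± 0.156 in mutant-labelled and 5.54 ± 0.287 in control-labelled arrays (SD, n = 4 each). Both Cyp11a1 means lay below the lower quartiles of the arrays (6.21 to 6.28). Of red blood cell markers 2 of 8 were measured: Alas2 fell 4.74-fold and Slc4a1, also an intercalated cell marker, had a difference of 0.25 (limma adjusted p = 0.434).

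**Figure D5:**
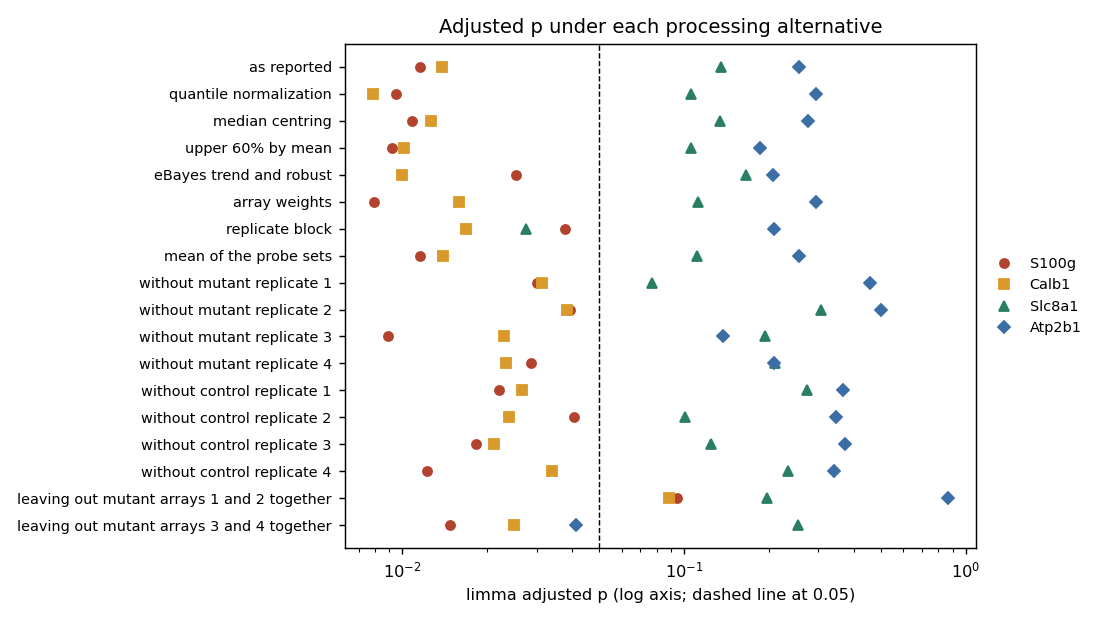
Limma adjusted p of S100g, Calb1, Slc8a1 and Atp2b1 as reported and under each alternative, on a log axis with a dashed line at 0.05. S100g and Calb1 lie left of the line everywhere except where mutant arrays 1 and 2 were left out together, Slc8a1 crosses it with the replicate block, and Atp2b1 crosses it where mutant arrays 3 and 4 were left out.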

How the data were processed

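Whole-kidney total RNA of 8 female mice was hybridized to Affymetrix mouse gene arrays, 4 labelled mutant and 4 labelled control. The authors deposited 1 table of log2 values, 35556 probe sets by 8 arrays. Per the submitters' processing notes limma was used, with no version; how background was corrected, probe sets summarized and arrays normalized, and on which build, is not given in the sources used here. No depth or background reading comes with the values, so the number of arrays limits the precision. The platform's annotation gave 21789 probe sets exactly 1 gene, 1621 several and 12146 none. Of the 21789, 21701 were matched to the GRCm38.p6 gene table and took its name, changed or not, and 88 kept the platform's name. The probe set with the highest mean stood for each of 19936 genes. Values were used as deposited, with no filter.

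Differences (labelled mutant minus labelled control) were fitted over all genes with limma 3.58.1 in R 4.3.3 (lmFit, eBayes, two-sided, Benjamini-Hochberg over all 19936 genes, calls at an adjusted p under 0.05), and the fit was tested on simulated data. Folds are 2 to the power of the difference. Genes, lists and alternatives were chosen with earlier results of these data known. The rule for named genes took the 10 members, Vhl, the 2 largest differences among the hypoxia targets, up to 4 called genes with the largest differences from every other list (or its largest difference where none was called), and for each of the 2 largest called members the 3 genes nearest in pattern. S100a10, Pvalb, Cldn2, Kl, Pth1r, Cyp27a1, Dhcr7, Lrp2, Slc12a3, Aqp2, Avpr2, St6gal1, Slc4a1, Umod, Slc34a1 and the pattern search for Cyp27b1 were added after their values were seen. Deviations from group means correlated at 0.138, 0.153, 0.295 and 0.175 between same-numbered arrays. Between a mutant and a control array of different numbers they correlated at -0.193 to 0.111. The numbers were therefore taken to pair the arrays, though the correlations are weak and the labels do not say so. Alternatives were quantile normalization, median centring, the upper 60% of genes, array weights, the replicate block, a robust eBayes with trend, probe set means, a threshold of 0.01 and leaving out arrays. Upstream sequences are RefSeq's.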

Additional observations from a re-analysis of the deposited data

Results flagged for a closer look

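In 94 groups of 4 arrays, from 47 named genes, 5 held a value that stood apart from the other 3 by Dixon's test at the 95% level, where chance gives about 1 in 20 groups. Vdr was highest in mutant array 3, at 12.37, with the other mutant arrays at 12.18 to 12.21. Bsnd, a thick ascending limb gene, was lowest in mutant array 4, at 10.67, with the other mutant arrays all at 10.74. Slc16a7 was lowest in control array 1, at 11.55, with the others at 11.64 to 11.66. Aqp3 was lowest in control array 3, at 9.58, with the others at 9.94 to 10.01. Car2 was lowest in control array 2, at 12.27, with the others at 12.44 to 12.47.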

How the results depend on the processing

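S100g and Calb1 kept their direction under every alternative run and their call at the 0.05 threshold under all but 1: leaving out mutant arrays 1 and 2 together gave log2 differences of 0.70 and 0.43 that did not pass, with fewer arrays in the fit. Members passing numbered 2, became 0 in that fit and at the 0.01 threshold, 3 with the replicate block (Slc8a1 added, 0.45) and 3 without mutant arrays 3 and 4 (Atp2b1 added, -0.26). Genes passing numbered 1442, 602 at the 0.01 threshold, 1657 with the replicate block and 902 to 1368 with each array left out in turn; 902, 903 and 917 were those without control array 3, control array 2 and mutant array 2. Differences near 0 changed sign: Trpv5 to 0.0090 without mutant arrays 3 and 4, Vdr to -0.0083 with array weights and -0.011 without mutant arrays 3 and 4, and Cyp27b1 to 0.078 with array weights and 0.35 without mutant arrays 1 and 2. With each array left out in turn, Vdr ran from -0.018 to 0.070 and Cyp27b1 from -0.64 to 0.027. The cause was not tested. Trpv6 was not among the upper 60% of genes and has no value there. For the 39 genes outside the set that the rule named, 564 of their alternative values kept direction and side of the threshold, 88 no longer passed, 8 newly passed and 0 changed sign. Genes named after their values were seen are not in those counts, and of these Pvalb (-0.25 to 0.50), Aqp2 (-0.10 to 0.08), Lrp2 (-0.08 to 0.04), S100a10 (-0.03 to 0.08) and Cldn2 (-0.08 to 0.02) changed sign over the alternatives.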
